A study of Homo sapiens with 2 samples.

Results

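The genes described here act on the ETV4 protein or on the promoters that ETV4 and its relatives share. They are COP1, DET1, DDB1, CUL4A, CIC, ATXN1, ATXN1L, TRIB1 and TRIB2, 9 genes of the 20037 protein-coding genes in the RefSeq table. They were listed by name and not by a cutoff on their signal, but with earlier results of these data known. All peaks of the ETV4 peak list that came within 10 kb of the span of one of these genes were taken, which gave 30 of the 54389 peaks. The list came from 1 anti-Flag ChIP-seq library of A549 cells, an established human non-small cell lung cancer line, in which ETV4 was first reduced by shRNA (A549-shETV4) and Flag-ETV4 was then put back by transfection. The other library is an input of A549 cells, prepared without an antibody, for which the sources used here do not say whether the cells carried the shRNA or Flag-ETV4. Its reads were not analysed here, and the control levels given below were recovered from the values in the peak list. There was no replicate of either library. The protein that was precipitated is therefore a tagged, transfected ETV4 and not the endogenous one, and every interval below covers counting error in a single library.

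ETV4, ETV1 and ETV5 make up the PEA3 group of ETS transcription factors. Cells keep these proteins short-lived through COP1, a RING-type E3 ubiquitin ligase that recognises a degron in PEA3 proteins and in JUN. COP1 joins DET1, the adaptor DDB1 and the cullin scaffold CUL4A in a larger ligase, and the Tribbles pseudokinases TRIB1 and TRIB2 dock on COP1 and bring it substrates such as C/EBPα. At the transcriptional level, the HMG-box repressor CIC (Capicua) binds an octamer in the promoters of PEA3 genes and of ERK feedback genes and keeps them silent until ERK signaling relieves it. ATXN1, the protein altered by a repeat expansion in a spinocerebellar ataxia, and its paralog ATXN1L bind CIC and stabilise it.

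The windows that carry the sequence side of these results are shown first. They were taken from the RefSeq promoter table on GRCh38.p14, which holds 16 start windows for 8 of the 9 genes. TRIB1 had no entry. Both strands were searched for the ETS sequences CGGAAG and, shifted by a base, CCGGAA, and for the core GGAA that both contain. The CIC octamers searched were TGAATGAA, TCAATGAA, TGAATGGA and TCAATGGA. For AP-1, the dimer that JUN forms, the site searched was TGACTCA. The ETS sequences overlap, so that 1 site can count for both. The following 30-base stretches hold the matches nearest to a summit in 3 of the ligase genes, with CGGAAG or CCGGAA or their reverse complement in capitals, read along the strand of the gene.

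DET1, chr15:88546662-88546691, minus strand: gctgggccgcagTTCCGGtggctggcggaa

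CUL4A, upstream group of starts, chr13:113208684-113208713, plus strand: agctggcgtcaCTTCCGGccctcggtccgt

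CUL4A, downstream start, chr13:113209633-113209662, plus strand: ggacgaggccccgCGGAAGggcagcttctc

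COP1, chr1:176207277-176207306, minus strand: ccacgcccgcctCTTCCGccgctcgcgcgc

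The next set shows start regions that hold a GGAA core (or TTCC, in capitals) but no CGGAAG or CCGGAA, and 3 of these 4 lie at start peaks with folds over 30. For DDB1 only the 122 bases between its start and that of TKFC on the opposite strand are printed. For the others the 250 bases before the start are printed. The bases printed for the upstream start of CIC hold its summit. At DDB1, ATXN1L and the downstream start of CIC the summit lies outside the printed bases, so these do not show the sequence at the summit. For DDB1 the TTCC nearest the summit, 48 bp from it, is also outside them.

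DDB1, chr11:61333106-61333227, minus strand: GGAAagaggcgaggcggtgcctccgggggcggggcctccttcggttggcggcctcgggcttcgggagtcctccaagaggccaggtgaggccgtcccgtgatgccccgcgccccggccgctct

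ATXN1L, chr16:71845726-71845975, plus strand: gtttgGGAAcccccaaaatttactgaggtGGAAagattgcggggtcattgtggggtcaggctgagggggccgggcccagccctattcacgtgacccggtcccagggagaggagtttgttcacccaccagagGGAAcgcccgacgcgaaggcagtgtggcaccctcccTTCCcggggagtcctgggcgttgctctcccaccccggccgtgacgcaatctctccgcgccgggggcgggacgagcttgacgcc

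CIC, upstream start, chr19:42268280-42268529, plus strand: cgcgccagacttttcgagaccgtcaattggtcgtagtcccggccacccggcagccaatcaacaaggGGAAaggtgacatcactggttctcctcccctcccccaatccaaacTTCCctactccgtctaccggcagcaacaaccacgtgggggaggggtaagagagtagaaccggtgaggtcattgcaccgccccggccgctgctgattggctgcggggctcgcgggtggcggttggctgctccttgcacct

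CIC, downstream start, chr19:42284219-42284468, plus strand: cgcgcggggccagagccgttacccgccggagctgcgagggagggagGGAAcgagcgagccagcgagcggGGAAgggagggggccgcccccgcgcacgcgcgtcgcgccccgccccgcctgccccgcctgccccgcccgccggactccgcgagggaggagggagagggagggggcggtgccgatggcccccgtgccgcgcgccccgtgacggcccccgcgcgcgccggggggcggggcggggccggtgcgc

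The last pair holds the matches to a CIC octamer, in capitals, in the start windows of ATXN1 and of CIC itself.

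ATXN1, chr6:16760266-16760295, minus strand: tgctgggagggTGAATGAAgccaggaggag

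CIC, middle start, chr19:42269234-42269263, plus strand: gctgttgcaggTCCATTCAccattttgtgt

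To find where Flag-ETV4 lay at these genes, each peak was described by its fold enrichment over the control at the summit, its −log10 q, its width, and the pileup of fragments at the summit with the control level expected there. The last pair of values was recovered from the fold and the −log10 p, as explained in the processing section. All 9 genes had at least 1 peak within 10 kb, against 81.6% of all protein-coding genes. A start with a peak is the narrower reading. All 8 genes whose start is in the promoter table had a summit within 1 kb of it, against 62.1% of 15843 protein-coding genes, and at TRIB1 a summit lay within 1 kb of the nearest end of the gene. With a fold over 10, 7 of the 8 still had such a summit, all but DET1, against 44.7%. With a fold over 20 there were 6, without DET1 and CUL4A, against 27.1%. The 9 genes were not drawn as a sample of any group, and no test was made of these shares.

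**Figure D1:**
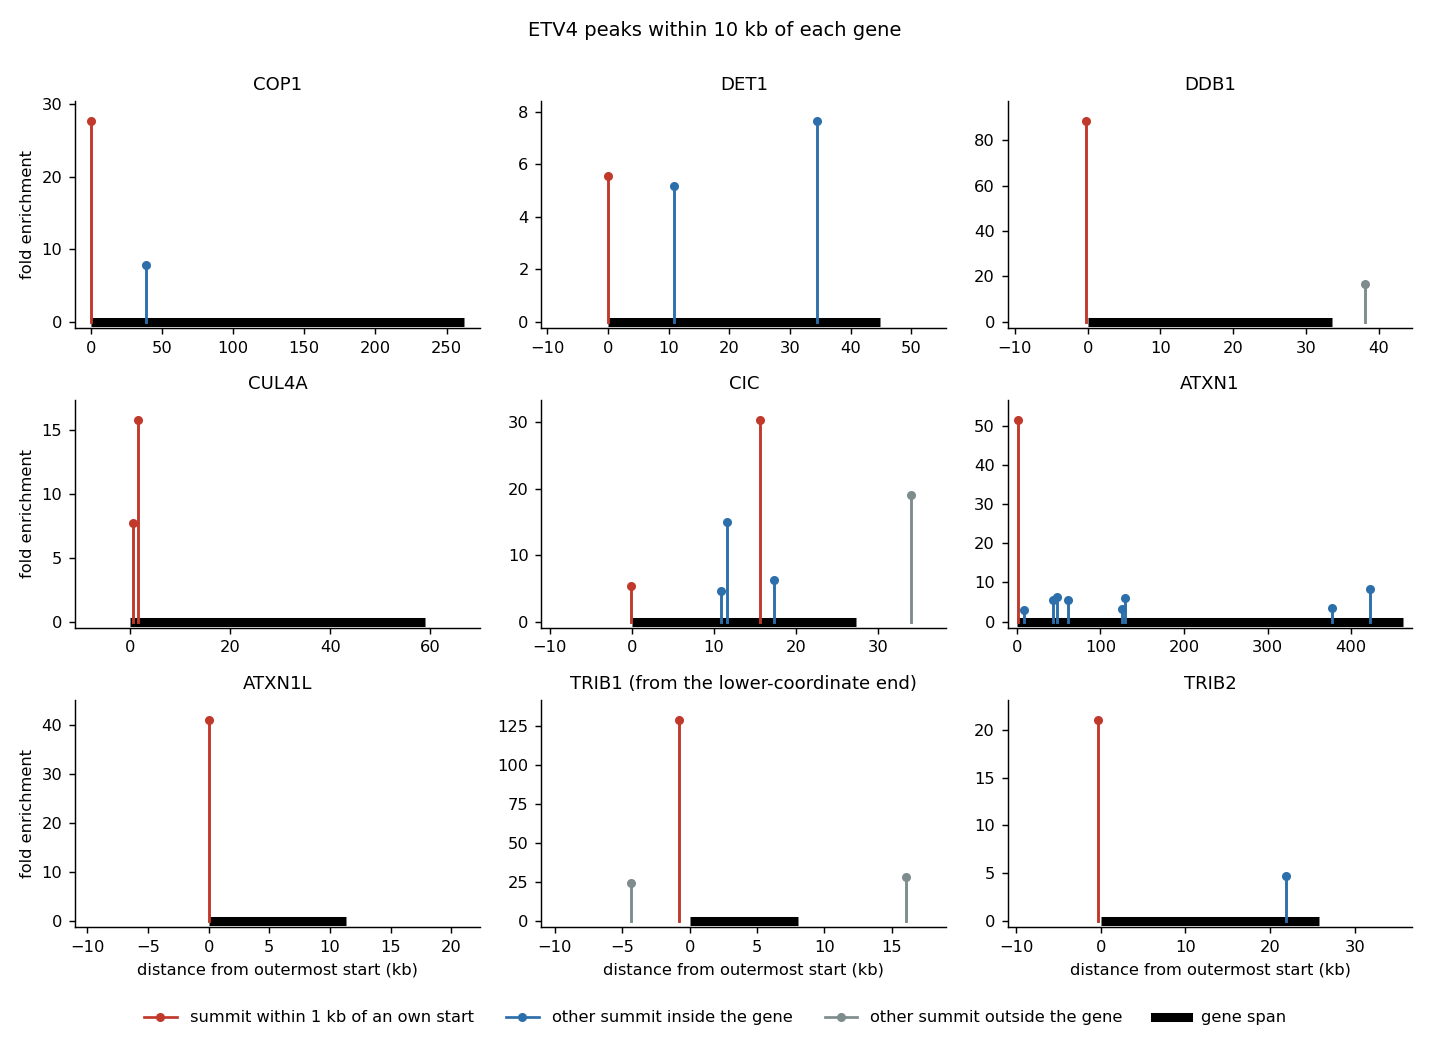
Fold enrichment of every peak (vertical axis, own scale in each panel) against the distance of its summit from the outermost start of the gene in kb, along the direction of transcription, for the 9 genes. TRIB1 is drawn from its lower-coordinate end. The tallest stem is red, at an own start or the lower-coordinate end of TRIB1, in every panel except DET1, where it stands 34.1 kb inside the gene. The share of all protein-coding genes with their strongest peak at a start was not computed.

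Of the 30 peaks, 11 had a summit within 1 kb of an own start, or of the nearest end for TRIB1, and are called start peaks, 15 lay elsewhere inside the genes and 4 lay outside them. By median fold the start peaks were above the inside peaks, but not all of them were strong. The start peaks had a median fold of 27.8 and pileups from 13 to 476 fragments. The 15 inside peaks had a median fold of 5.49, pileups from 10 to 95 fragments, and 1 fold over 10. The median over the whole list was 9.63. Start peaks at DET1 and at the upstream starts of CIC and CUL4A were below it, at 5.56, 5.29 and 7.73. The 4 outside peaks were all above it, with folds of 16.8, 19.1, 24.4 and 28.4. The same split over all peaks of the list is not given here. Start peaks were also wider, with a median of 1171 bp against 462 bp for the inside peaks and 519 bp for all peaks. Of the inside peaks, 8 were in ATXN1 alone, 3 in CIC and 2 in DET1, so that these peaks are largely those of 1 long gene.

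The order of the genes by their strongest start peak ran from TRIB1 to DET1. It was TRIB1 at a fold of 128.9, DDB1 at 88.6, ATXN1 at 51.5, ATXN1L at 41.1, CIC at 30.3, COP1 at 27.8, TRIB2 at 21.02, CUL4A at 15.8 and DET1 at 5.56. With the control level taken as fixed, the 95% intervals of neighbours in this order did not overlap at 3 of 8 steps, from TRIB1 to DDB1, from DDB1 to ATXN1 and from CUL4A to DET1. They overlapped at each step from ATXN1 down to CUL4A, where the differences were not tested. The median strongest start fold of the 8 genes in the promoter table was 29.0, against 17.3 for the 9834 protein-coding genes with a start peak.

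**Figure D2:**
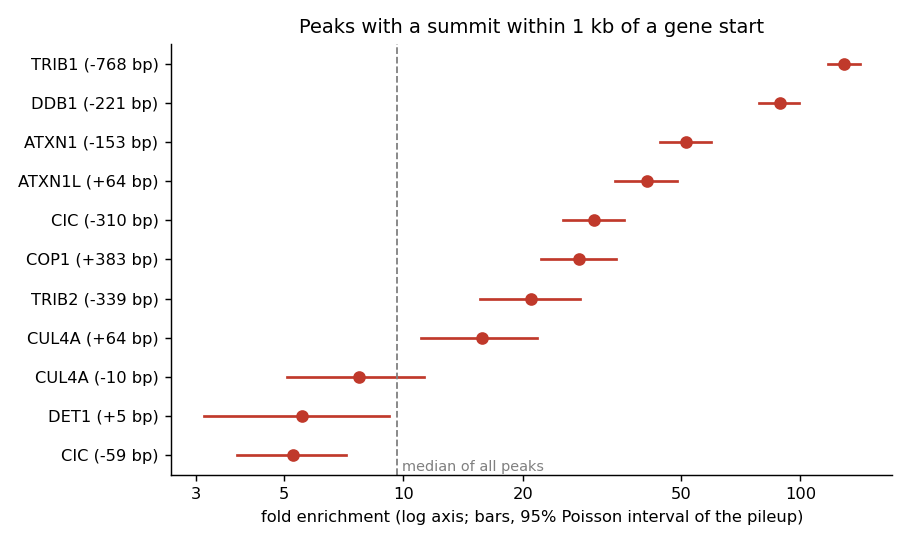
Fold enrichment (log axis) of the 11 start peaks, that of TRIB1 measured from its nearest end, with the 95% Poisson interval of the pileup as bars and the distance of the summit from the start in bp in brackets, negative for upstream. TRIB1 and DDB1 stand above the rest, and the upstream peaks of CIC and CUL4A and the DET1 peak lie below the median of all peaks, 9.63.

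Among the ligase genes, COP1, the substrate-binding E3 subunit, had a single strong peak. RefSeq places COP1 on the minus strand of chromosome 1 from 175944831 to 176207286. The start peak, from 176206560 to 176207863, had a fold of 27.8 (95% interval 22.2 to 34.3), a −log10 q of 98.6 and a pileup of 83 fragments over a control level of 2.03. Its summit was 383 bp inside the gene, while the CTTCCG match printed above lies 8 bases before the start, within the peak but 389 bp from the summit. The only other peak, 38.7 kb into the gene, had a fold of 7.88 and 17 fragments at the lowest control level of the list, 1.28. Downstream of it, no peak lay in the last 223 kb of the gene, 85.1% of its span. With 0.708 peaks per 100 kb, COP1 ranked at percentile 21.6 among the 3356 protein-coding genes that span over 100 kb, whose median was 1.52.

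DET1, which bridges COP1 to DDB1, had the weakest set. Its start peak on chromosome 15, from 88546367 to 88546880, had a fold of 5.56 (3.15 to 9.23), a −log10 q of 6.85 and 13 fragments over a control level of 1.52. It covered all 3 annotated starts, and its summit at 88546676 fell within the TTCCGG printed above, which spans 88546674 to 88546679. The peaks inside the gene were alike in strength. They had folds of 7.66 (4.64 to 12.0) and 5.17 (2.86 to 8.73), pileups of 17 and 12 fragments, and summits 34.1 kb and 10.5 kb from the nearest start. The 3 intervals overlap, and the differences were not tested. By its start fold, DET1 was at the 10.2th percentile of the protein-coding genes with a start peak.

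DDB1, the adaptor that all CUL4 ligases use, had the strongest start peak among the ligase genes. The peak on chromosome 11 from 61332387 to 61333731 had a fold of 88.6 (78.9 to 99.3), a −log10 q of 494.8 and 297 fragments (264 to 333) over a control level of 2.36. That fold was at the 99.4th percentile of the protein-coding genes with a start peak. The peak covers the start of DDB1 and that of TKFC, a kinase of triose sugars, 123 bp apart on opposite strands. The summit was 221 bp upstream of DDB1 and 98 bp inside TKFC, so the peak belongs to a promoter that both genes share and cannot be assigned to either. A further peak, from 61294181 to 61295207 with a fold of 16.8, lay 4516 bp beyond the 3′ end of DDB1, and its summit was 381 bp inside the start of VWCE.

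CUL4A, the cullin scaffold, has starts over 1420 bp and had a peak at either end of them. The upstream peak on chromosome 13, from 113208126 to 113208900, covered 3 CUL4A starts and lies where PCID2 starts on the opposite strand, 25 bp from a CUL4A start. It had a fold of 7.73 (5.11 to 11.3) and 25 fragments over a control level of 2.36. Its summit, at 113208684, was the first base of the stretch printed above, 14 bp from the middle of its CTTCCG. The downstream peak, from 113209155 to 113210325, had a fold of 15.8 (11.1 to 21.8) and 35 fragments over the lowest control level, 1.28. The summit was 64 bp inside the last start and 28 bp from a CGGAAG. The fold intervals overlap, and so do those of the pileups, 16.2 to 36.9 and 24.4 to 48.7 fragments, and the difference was not tested.

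The repressor CIC had the densest set among the 9 genes. Within 10 kb of its 27.3 kb span on chromosome 19 lay 6 peaks, or 12.7 per 100 kb. This was at the 92.7th percentile of all protein-coding genes, whose median was 3.06. The count includes the peak at PAFAH1B3 and PRR19 described below. Without that peak CIC would rank just below TRIB1, which came next with 10.7 per 100 kb. RefSeq gives CIC an upstream start at 42268530, from which long transcripts run, and a downstream start at 42284469, 15939 bp away. The upstream start had a peak from 42268141 to 42268665 with a fold of 5.29 (3.82 to 7.16) and 40 fragments (28.6 to 54.5), with its summit 59 bp before the start. The downstream start had a peak from 42283470 to 42284736 with a fold of 30.3 (25.3 to 36.0) and 128 fragments (107 to 152), with its summit 310 bp before the start. Neither interval overlaps its counterpart, and the downstream fold was 5.72 times the upstream one. The pileup, however, was 3.20 times as high, since the control level was 6.75 fragments at the upstream start and 3.26 at the downstream one. The middle start, at 42269252, was in no peak.

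Between the starts of CIC lay a wide peak of 2267 bp, from 42279842 to 42282108, with a fold of 15.0 and 95 fragments. This was the 1 inside peak with a fold over 10. A weaker peak just before it had a fold of 4.65, and another, 1357 bp past the downstream start, had a fold of 6.32. The strongest pileup near CIC, 179 fragments over a control level of 8.44, was not at CIC but 6656 bp beyond its 3′ end, in a peak from 42302016 to 42302780 that covers the facing starts of PAFAH1B3 and PRR19. Its fold of 19.1 was below that of the downstream CIC start, whereas its −log10 q, 162.8, was above the 149.5 of that start. Control levels around CIC ran from 2.96 to 8.44, all above the list's median of 1.67. Their part in the folds was not tested.

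**Figure D3:**
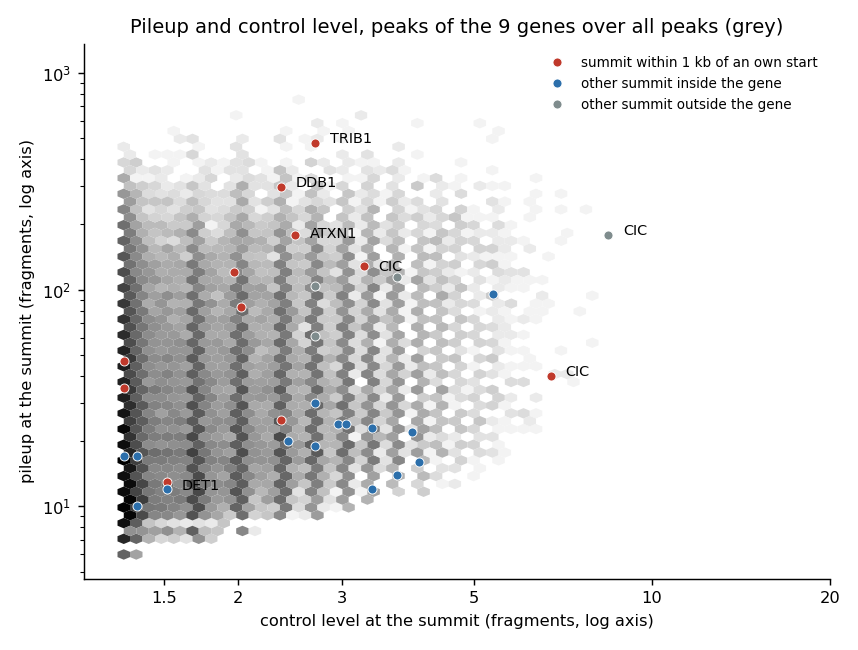
Pileup of fragments at the summit against the control level expected there (both log axes), for the 30 peaks as coloured points and for all peaks with a control level under 20 in grey, darker where there are more. CIC peaks lie to the right, at control levels of 2.96 to 8.44, whereas TRIB1 and DDB1 reach 476 and 297 fragments at levels of 2.70 and 2.36.

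ATXN1, the longest of the genes with a span of 462 kb on the minus strand of chromosome 6, had 1 strong and 8 weak peaks. The strong one, from 16759819 to 16762836, was 3018 bp wide and covered both annotated starts, which are 1276 bp apart. Its fold was 51.5 (44.3 to 59.6), its −log10 q 255.1 and its pileup 179 fragments (154 to 207) over a control level of 2.495. The summit was 153 bp upstream of the inner start, at 16760184, and 56 bp from the TGAATGAA printed above. The 8 other peaks had folds from 2.97 to 8.38, pileups from 12 to 30 fragments and −log10 q from 2.28 to 19.3, at control levels of 2.43 to 4.05, again above the list's median. Of these, 6 lay within 128 kb of the inner start and the others lay 375 kb and 421 kb into the gene, with a stretch of 247 kb free of peaks between them, 53.5% of the span. With 1.87 peaks per 100 kb, ATXN1 ranked at percentile 59.7 among protein-coding genes that span over 100 kb.

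ATXN1L, the paralog that also holds CIC, had a single peak. It ran from 71845710 to 71846656 on chromosome 16 and had a fold of 41.1 (34.1 to 49.0), a −log10 q of 164.4 and 121 fragments (100.4 to 145) over a control level of 1.97. The summit was 64 bp inside the gene. Its pileup interval overlaps that of the downstream CIC start, 107 to 152 fragments, and not that of ATXN1. By fold, the ATXN1L interval overlaps both, 25.3 to 36.0 at that CIC start and 44.3 to 59.6 at ATXN1.

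**Figure D4:**
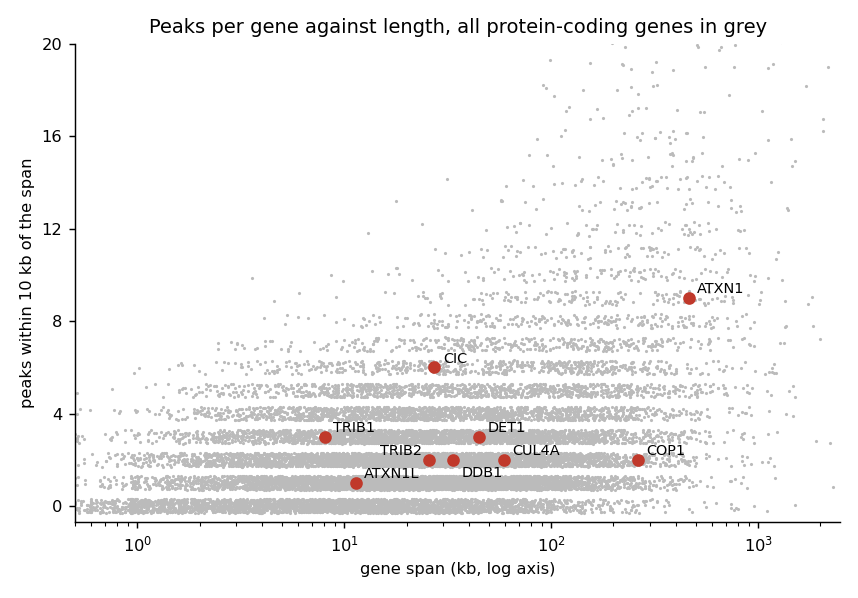
Number of peaks within 10 kb of the span against the length of the span (log axis), for the 9 genes in red and all protein-coding genes in grey, with a small vertical scatter added to the grey points and 42 genes with over 20 peaks beyond the axis. CIC has 6 peaks on 27.3 kb and COP1 has 2 on 262 kb.

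TRIB1 had the strongest peak of the set. The gene lies on chromosome 8 from 125430358 to 125438403. A peak of 4883 bp, from 125428914 to 125433796, took in its lower-coordinate end, with a summit 768 bp outside the gene. The fold was 128.9 (118 to 141), the −log10 q 862.3 and the pileup 476 fragments (434 to 521) over a control level of 2.70. Among all peaks its fold ranked at percentile 99.6 and its width at percentile 99.96. A second peak 3570 bp further out, from 125425750 to 125427423, had a fold of 24.4 and 114 fragments, and another, 8032 bp beyond the other end from 125446077 to 125446778, had a fold of 28.4 and 104 fragments. All 3 TRIB1 peaks were above the median fold of the list.

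TRIB2, its paralog, had a start peak of more ordinary size. The peak on chromosome 2 from 12716146 to 12717240 had a fold of 21.02 (15.6 to 27.8), a −log10 q of 53.7 and 47 fragments (34.5 to 62.5) over the lowest control level, 1.28. Its summit lay 339 bp upstream of TRIB2 and 161 bp inside the lncRNA gene LOC124905974, which starts 178 bp from TRIB2 on the opposite strand. A weak peak 21.8 kb into the gene had a fold of 4.68 and 10 fragments. The TRIB1 pileup interval lies wholly above that of TRIB2. TRIB3, the remaining Tribbles gene, had a start peak with a fold of 54.9 (46.9 to 63.9).

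Some of these starts have a neighbour on the other strand. Of the 8 genes in the promoter table, 5 had an opposite start within 1 kb, and 25.9% of protein-coding genes with an entry had one. The difference was not tested. These were COP1 with COP1-DT at 379 bp, DET1 with LOC124903547 at 96 bp, DDB1 with TKFC, CUL4A with PCID2, and TRIB2 with LOC124905974. None was found for CIC, ATXN1 and ATXN1L in that table, which does not hold every gene. The start windows were rich in G and C, with a median of 68.2% against 58.7% of all windows.

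Of the 8 genes with start windows, COP1, DET1 and CUL4A held one of the longer ETS sequences, and a relation to fold was not tested. A summit lay in 7 of the 16 windows, against 14.3% of all 35116 windows, and TRIB1 has no window. The summits at the starts of DET1 and in the upstream peak of CUL4A each counted in more than 1 window. CGGAAG was found in 4 of the 16 start windows of 300 bases, at COP1 and CUL4A, and CCGGAA in 6, at DET1 and CUL4A. Over all 35116 windows, 19.5% held CGGAAG and 17.2% held CCGGAA. The shares were 49.7% and 46.2% in the 5023 windows that contain a summit, and 9.17% and 7.65% in the 20349 windows without a peak. Some windows of DET1 and of CUL4A overlap, and 1 site can then count in several windows. The windows of DDB1, ATXN1 and ATXN1L, with start folds of 88.6, 51.5 and 41.1, held neither sequence. Nor did those of CIC, with start folds of 5.29 and 30.3, or of TRIB2, with 21.02. COP1, which held CGGAAG, had a start fold of 27.8. DET1, with the lowest fold among the strongest start peaks, held CCGGAA at its summit. The full ETS consensus ACCGGAAGT was in none of the 16 windows and in 0.9995% of all windows, and the GGAA core was in windows of all 8 genes and in 95.5% of all windows. Some summits lie outside these windows, at COP1, ATXN1L, TRIB2 and the downstream starts of CIC and CUL4A, so the letters at those summits were not read.

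A CIC octamer was found in the windows of ATXN1 and CIC, that is in 2 of 16 windows against 3.77% of all windows. The share was 1.55% in windows that contain a summit and 5.03% in windows without a peak. In ATXN1 the octamer lies in the strong start peak. In CIC it lies at the middle start, 778 bp from the nearest summit and in no peak. TGACTCA was in none of the 16 windows and in 4.95% of all.

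The other genes of the pathway were read in the same way, by the strongest summit within 1 kb of a start. They too were chosen with earlier results of these data known, and no test was made of their shares. Of 40 such genes, 33 have a start in the promoter table. A start peak was found for 31 of these 33, against 62.1% of protein-coding genes, with a median fold of 17.5. The 7 others were read from either end of the gene, which need not be where transcription starts, and with them 37 of 40 had a peak, with a median fold of 15.4.

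The further subunits and E2 enzymes of the CUL4 and DET1 ligase had a start peak in 5 of 5 genes with a start, against the same 62.1%, with a median fold of 14.5. The E2 enzyme UBE2E2 was at 35.5, and the RING subunit RBX1 and the second cullin CUL4B were at 10.9 and 16.3. DDA1, a small DDB1 partner read from either end, was at 6.25. Of the COP9 signalosome, which removes NEDD8 from cullins, 8 of 9 subunit genes with a start had a start peak, with a median fold of 21.03. COPS6 was highest at 53.5, COPS8 lowest at 4.19, and COPS4 had no peak within 10 kb.

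Among the genes for COP1 substrates, 4 of 4 with a start had a start peak, against 62.1% of protein-coding genes. ETS2 and JUN had folds of 48.9 (40.7 to 58.4) and 36.3 (30.1 to 43.3). CEBPA, which encodes C/EBPα, was at 10.95 (8.36 to 14.1) and ETV1 at 10.1 (6.48 to 15.0). The other 3 were read from either end, with ETV5 at 5.58 (3.33 to 8.85) and ETS1 at 6.72 (4.23 to 10.2). The strongest of 11 peaks within 10 kb of ETS1 had a fold of 58.9. The peak that stands for ETV4 in this count has a control level of 313 fragments, against a median of 1.67 over the list, and so cannot be set beside the others. A second ETV4 peak, from 43532667 to 43532950 on chromosome 17, had a fold of 18.6 over a control level of 412. These 2 were the only peaks of the list with a control level of 20 or more, and the source of these levels was not tested. The third ETV4 peak, from 43545271 to 43546530, had a fold of 46.8 over a control level of 9.11.

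Of the genes known as CIC targets, 5 of 6 with a start had a start peak, against 62.1%, with a median fold of 42.2. The ERK feedback genes of the SPRY and SPRED families were above ETV1 here. SPRY4 had a fold of 58.1 (49.1 to 68.4), SPRY2 46.4, SPRED1 42.2 and SPRED2 30.7. DUSP6, an ERK phosphatase gene, had no summit within 1 kb of its start, although 3 peaks lay within 10 kb, the strongest with a fold of 61.1. Read from either end, DUSP4, another ERK phosphatase gene, was at 26.4. With the genes read from either end but without ETV4, 7 had a peak and their median was 30.7.

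In the group of CIC partners, 9 of 9 genes with a start had a start peak, against 62.1%, with a median fold of 13.9. The corepressor genes HDAC2, HDAC1 and SIN3A were at 25.2, 17.8 and 13.9, and the kinase gene RPS6KA1 was at 15.4. The genes for the YWHA family of phosphoserine-binding adaptors were spread widely. YWHAB had a fold of 95.6 (84.8 to 107), YWHAH 13.8, YWHAQ 10.99, YWHAE 9.26 and YWHAG 4.95 (3.24 to 7.27). YWHAZ, read from either end, had no summit within 1 kb.

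**Figure D5:**
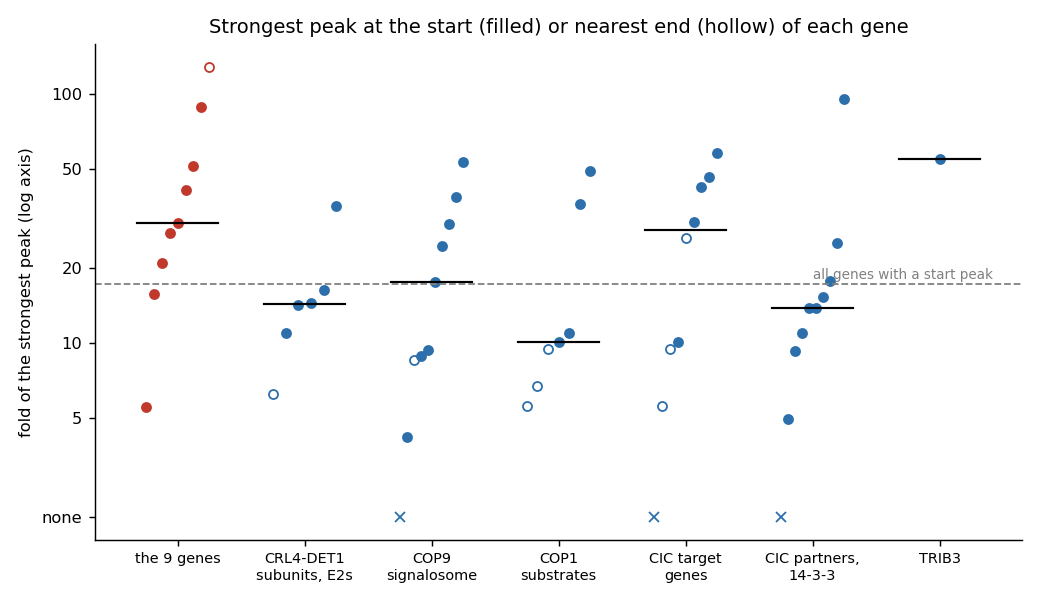
Fold of the strongest summit within 1 kb (log axis) of a start (filled points) or, for genes with no start in the table, of either end (hollow points), by group, with the median of the genes that have one as a black bar, genes without one as crosses, and the median of all protein-coding genes with a start peak, 17.3, as a dashed line. The 9 genes have a bar at 30.3 and the CIC target genes, ETV4 included, at 28.5.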

How the data were processed

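ChIP-seq was measured in 1 anti-Flag immunoprecipitate and 1 input of A549 cells. The submitters' processing notes name Bowtie2 2.4.1, SAMtools, MACS2 2.2.7.1, deepTools 3.5.0 and the build hg38. The study states a fold-change cutoff for the list, whose lowest fold was 2.34. Other parameters and the handling of duplicates are not given in the sources used here. The authors deposited a narrowPeak list of that single library, in which each peak has a ratio to the control (fold enrichment), a −log10 p-value, a −log10 q-value, a summit position and a score meant for display, here unused. The methods name a Flag antibody from CST and the labels one from Sigma. The lowest −log10 q was 1.30.

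Positions are 1-based. Gene spans came from RefSeq GRCh38.p14 and starts from the RefSeq promoter table, with 250 bases before and 50 after each start. The 9 genes, the pathway lists and all rules were chosen with earlier results of these data known. Genes named are the 9, the list genes and, for each peak of the 9, the RefSeq gene whose start or end is closest to the summit. Pileup and control level were solved from fold = (pileup + 1)/(control + 1) and the Poisson p-value, which gave whole pileups to within 0.01 for 100% of peaks. The median pileup was 26. Intervals on pileups are exact Poisson 95% intervals, and those on folds take the control level as fixed. The functions were tested on simulated data. Tables were read with pandas 2.3.3 and numpy 2.4.6 in Python 3.11.15, intervals came from scipy 1.17.1, and plots from matplotlib 3.10.9.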

Additional observations from a re-analysis of the deposited data

How the results depend on the processing

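Across 45 alternatives, 40 counts stayed within 1.5 times the reported one. Some of these could not change, since a wider window or start distance cannot lower a count of 9 of 9 genes. The bound also takes in a fall from 9 genes to 7 and from 8 to 6. The number of peaks at the 9 genes was 58 with a window of 50 kb in place of 10 kb, and 13 and 9 with a fold over 10 and over 20 required. With the motif GGAA in place of CGGAAG, windows of 8 genes in place of 2 held a match, and with ACCGGAAGT 0 did. The share of all protein-coding genes whose strongest peak lies at a start was not computed. Among the 9 genes, the strongest peak was at an own start, or the nearest end of TRIB1, for 8 by fold. The count was 7 by −log10 q or by pileup, where the peak at PAFAH1B3 took the place of that at CIC. In windows of 50 kb it was 6, since stronger peaks lay 15.2 kb from a CIC start, with a fold of 102.0, and 49.9 kb from that of ATXN1L, with a fold of 42.3 against 41.1 at its start. Alternatives chosen after seeing the data gave 36 pathway genes with a peak at a start or end in place of 37 without ETV4, and 31 with only genes that have a start in the table. Motifs around summits were not run, as no genome was used here. No paired analysis was possible because each group has 1 library. The lack of replicates limits every value, and a pileup such as the 13 fragments at the start of DET1 leaves a fold between 3.15 and 9.23.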
